A study of Mus musculus with 10 samples.

Results

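Mir22hg, Mir99ahg and Dnm3os are long non-coding RNA genes of the mouse whose transcripts enclose microRNA hairpins. They are 3 of the 14771 genes and assembled loci in a table of long non-coding transcripts from the pressure-loaded left ventricle. Every transcript that GENCODE release M21 assigns to these genes was taken, which gave 25 transcripts: 2 of Mir22hg, 17 of Mir99ahg and 6 of Dnm3os. Of these, 22 were above 0 in at least 1 sample and 3, all of Dnm3os, were listed at 0 in every sample.

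The study asks what SIRT5, a mitochondrial sirtuin that takes acyl groups such as succinyl off lysine, does in the hypertrophy of a heart that pumps against a narrowed aorta, as after transverse aortic constriction (TAC). RNA came from left ventricular tissue of C57BL/6 mice 6 weeks after TAC, from 6 wild-type samples (replicates 1, 3, 4, 5, 6 and 7) and 4 Sirt5 knockout samples (replicates 2, 3, 4 and 5). All of them carried the aortic band, so no unloaded ventricle is part of any comparison. The series' design text describes male C57BL/6N mice, 5 weeks old, a knockout made by CRISPR-Cas9 that it calls conventional, and a Cre-ERT2 system induced by tamoxifen, without saying which animals each applies to or which promoter drives the Cre. It gives 1 mg of tamoxifen daily over 10 days and then a pause of 4 weeks before surgery, again without naming the genotypes that received it. The labels do not say that the samples are separate animals. The p-values then reflect only how much these samples vary, and part of that variation may be technical.

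Values are FPKM, sequenced fragments relative to transcript length and to library size, which makes levels of different transcripts comparable per length. Depth per library was estimated at 22700000 to 29800000 fragments, with a mean of 26700000 ± 2010000 in wild type and 24100000 ± 1300000 in knockout (SD, n = 6 and n = 4; exact permutation p = 0.0571). Per sample, an estimated 130 to 282 fragments stood behind Mir22hg, 171 to 616 behind Mir99ahg and 16.9 to 865 behind Dnm3os. No Sirt5 transcript was in the table, so the targeted gene gives no check of the genotype labels. Of 34 cell type markers, 5 were in the table. The heart muscle RNA Mhrt was at 1.22 to 5.78 FPKM in wild type and 0.835 to 4.63 in knockout, whereas 0 of 7 fibroblast and 0 of 4 endothelial markers could be read. Knockout replicate 5 stood apart: it was the highest or lowest sample, with a gap of 1 or more in log2 units to the next, in 47 of 3293 genes and loci, against 7 to 18 in each of the other samples. Most tests are therefore given with and without it, and for other values the samples or the group without it are shown.

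MicroRNA hairpins are cut out of longer primary transcripts in the nucleus and trimmed in the cytoplasm to mature microRNAs, which pair with messenger RNAs mainly through a seed near their 5′ end. The level of a host transcript is one determinant of how much hairpin can be made, but the spliced host RNA and the mature microRNA are separate molecules, and no mature microRNA was measured here. Mir22hg encloses miR-22, an abundant microRNA of striated muscle that is needed in mice for a full hypertrophic response of the heart. Mir99ahg encloses the cluster of miR-99a, let-7c and miR-125b, which belongs to a set of similar clusters that share a common ancestry. Dnm3os runs opposite to an intron of the dynamin gene Dnm3 and is the precursor of miR-199a and miR-214, which are best known from mesenchymal cells, the developing skeleton and fibrosis.

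The 3 hosts enclose 6 hairpins, and RefSeq (GRCm38.p6) gives mature sequences for all 6. The arms for which these hosts are usually studied are shown because they are the products that tie the genes together. Each is written 5′ to 3′ with the seed, bases 2 to 8, in capitals. The 7 arms have 7 different seeds.
mmu-miR-22-3p (Mir22hg, chr11:75463772-75463793, plus strand): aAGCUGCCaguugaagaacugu
mmu-miR-99a-5p (Mir99ahg, chr16:77598940-77598961, plus strand): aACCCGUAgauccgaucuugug
mmu-let-7c-5p (Mir99ahg, chr16:77599672-77599693, plus strand): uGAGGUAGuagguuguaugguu
mmu-miR-125b-5p (Mir99ahg, chr16:77646279-77646300, plus strand): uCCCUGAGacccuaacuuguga
mmu-miR-199a-5p (Dnm3os, chr1:162217844-162217866, plus strand): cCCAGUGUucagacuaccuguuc
mmu-miR-199a-3p (Dnm3os, chr1:162217883-162217904, plus strand): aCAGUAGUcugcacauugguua
mmu-miR-214-3p (Dnm3os, chr1:162223438-162223459, plus strand): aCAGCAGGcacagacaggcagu

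Several of these products have other sources in the genome. The mature let-7c-5p is also made from Mirlet7c-2, miR-125b-5p from Mir125b-1, miR-199a-5p from Mir199a-1, and miR-199a-3p from Mir199a-1 and Mir199b. The let-7 seed is the most widely shared, with 11 mouse microRNA names in the RefSeq table, and that of miR-125b-5p is shared by 5. The seeds of miR-22-3p and miR-199a-5p belong to no other name in that table. It lacks some mature sequences, such as the let-7a-5p entry of Mirlet7a-2, so microRNAs missing from it may share these seeds.

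The hosts carry their hairpins in different ways. Mir22 lies in exon 2 of both Mir22hg transcripts, and Mir199a-2 and Mir214 lie in the single exon of Dnm3os-201 and Dnm3os-202. The 3 hairpins of Mir99ahg lie in no exon of any of its 17 transcripts. They fall within introns of 4 transcripts and outside the other 13.

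**Figure D1:**
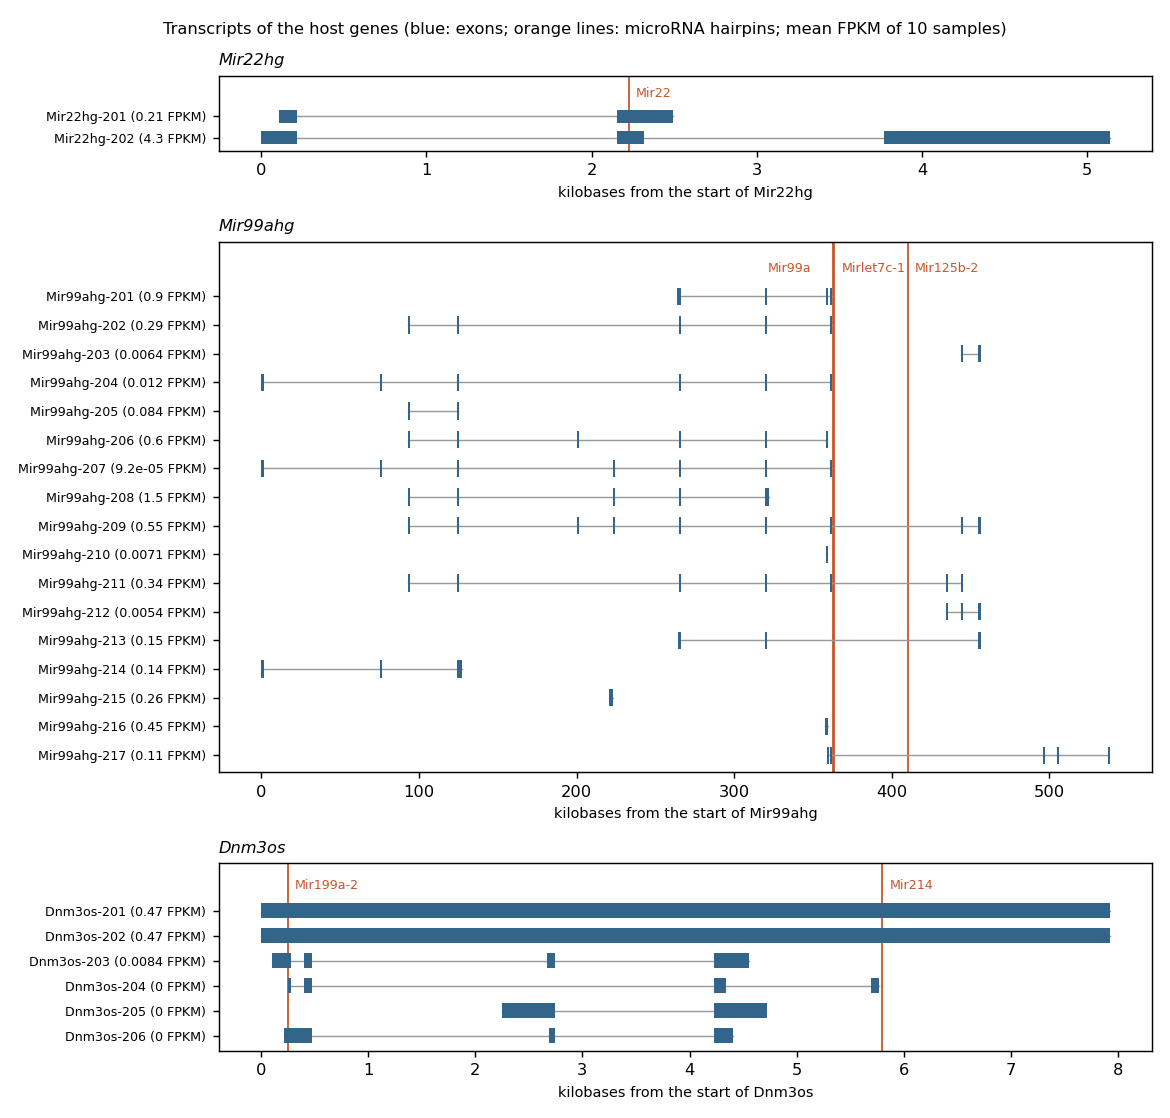
Exons (blue), introns (grey lines) and hairpins (orange lines) of the 25 transcripts of the 3 host genes, in kilobases from the start of each gene, with each transcript's mean FPKM over the 10 samples beside its name. The hairpins of Mir22hg and Dnm3os fall in exons of their main transcripts, while those of Mir99ahg fall between exons and beyond the ends of most transcripts.

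Loss of Sirt5 went with no detectable change in the level of any of these hosts. Mir22hg was at 4.46 ± 0.83 FPKM in wild type and 4.68 ± 1.83 in knockout, Mir99ahg at 5.97 ± 2.32 and 4.49 ± 0.982, and Dnm3os at 0.513 ± 0.259 and 1.59 ± 2.06 (SD, n = 6 and n = 4). The higher mean of Dnm3os in knockout rested on replicate 5, at 4.65 FPKM. None of the 3 passed the threshold, an adjusted p below 0.05 in limma, in a fit across 3293 genes and loci of which 1 (0.0304%) passed, the assembled locus MSTRG.35125. Without knockout replicate 5, again none of the 3 passed, in a fit in which 2 of 3270 (0.0612%) did. At an unadjusted p below 0.05, 105 genes and loci were higher in knockout (3.19%) and 171 lower (5.19%), and the 3 hosts were not among them. Rescaling every sample to a common table sum turned that split to 52 higher and 260 lower. The genotypes overlapped for each of the 3 hosts with and without knockout replicate 5, while they did not overlap in 2.16% of all genes and loci tested, or 3.85% without that sample. Because whole ventricle was sequenced, fewer cells of a type and less RNA per cell cannot be told apart in any of these values.

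**Figure D2:**
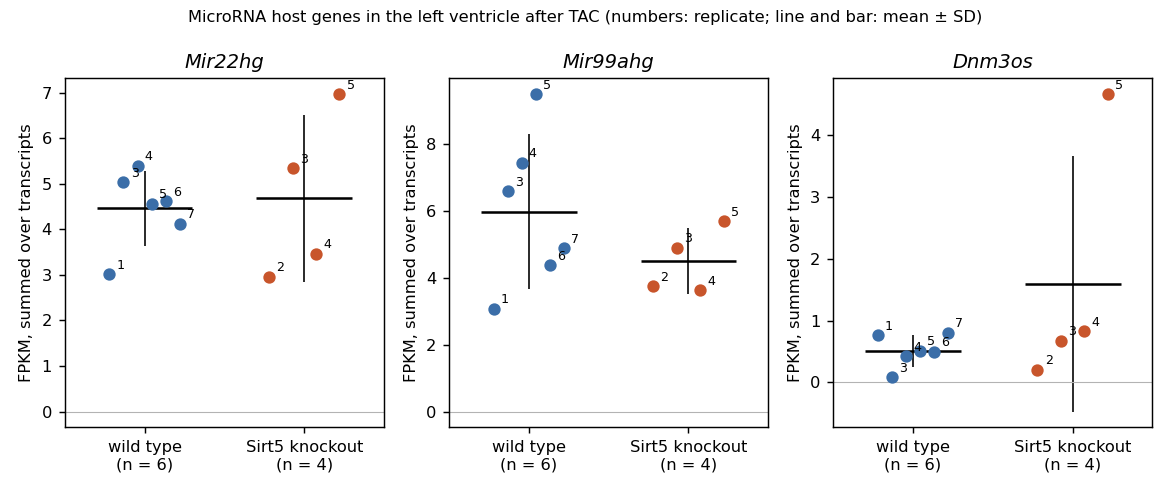
Summed FPKM of each host gene in the 6 wild-type (blue) and 4 Sirt5 knockout (orange) samples, with the replicate number beside each point and a line and bar for mean ± SD. The genotypes overlap in every panel, and knockout replicate 5 is the highest sample for Mir22hg (6.97 FPKM) and Dnm3os (4.65 FPKM).

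In order of mean level over the 10 samples, Mir99ahg (5.38 ± 1.98 FPKM) and Mir22hg (4.55 ± 1.23 FPKM) were close, and Dnm3os (0.944 ± 1.33 FPKM) was lowest (SD, n = 10). Mir22hg exceeded Mir99ahg in 3 of 10 samples, 1 wild type and 2 knockout. Whether Mir22hg and Mir99ahg differ in level was not tested. Both exceeded Dnm3os in 10 of 10 samples.

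Mir22hg (ENSMUSG00000085148.1, chr11:75461539-75466676 on GRCm38, plus strand, 5138 bases) is a processed transcript, and the miR-22 hairpin occupies chr11:75463716-75463810 within it. Its level in wild type was lowest at 3.02 FPKM, had a median of 4.59 and was highest at 5.40. The knockout samples had 2.96, 5.34, 3.46 and 6.97 FPKM in replicates 2, 3, 4 and 5. Replicates 2 and 5 of the knockout were the lowest and the highest of the 10 samples, so the knockout range enclosed that of the wild type. The log2 fold change, knockout against wild type and on the log2(FPKM + 1) scale, was 0.02 (SE 0.207, limma adjusted p = 0.988; exact permutation p = 0.938). Without knockout replicate 5, which was at 1.53 times the median of the other 9 samples, it was -0.16 (SE 0.185, limma adjusted p = 0.887; exact permutation p = 0.405).

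Mir22hg-202 (1752 bases, 3 exons) made up most of the gene. Its share of Mir22hg FPKM ranged from 89.2% to 100% and averaged 96.1 ± 4.14% in wild type and 94.96 ± 3.03% in knockout (SD, n = 6 and n = 4). The difference of -1.18 percentage points gave an exact permutation p of 0.652 (0.810 after Benjamini-Hochberg adjustment over the 3 hosts). Without knockout replicate 5 it was -0.22 points (exact permutation p = 0.952). The shorter Mir22hg-201 (449 bases, 2 exons) reached 0.551 FPKM at most and had a value of 0 in replicates 1 and 4 of the wild type. The messenger RNA gene Tlcd2 lies on the same strand, shares 206 exonic bases with Mir22hg and was not in the table, so some reads of the shared bases may belong to it.

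Mir99ahg (ENSMUSG00000090386.10, chr16:77236317-77773427 on GRCm38, plus strand) spans 537111 bases, by far the longest of the hosts. Its level in wild type ran from 3.08 FPKM in replicate 1 to 9.48 in replicate 5, with a median of 5.73. The knockout samples had 3.75, 4.90, 3.62 and 5.68 FPKM in replicates 2, 3, 4 and 5. All 4 lay inside the wild-type range, and 3 of the 6 wild-type samples were above every knockout sample. The log2 fold change was -0.29 (SE 0.248, limma adjusted p = 0.761; exact permutation p = 0.310) and -0.39 without knockout replicate 5 (SE 0.270, limma adjusted p = 0.828; exact permutation p = 0.25).

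The transcripts of Mir99ahg begin at several places. The transcripts from the first start (Mir99ahg-204, Mir99ahg-207 and Mir99ahg-214) held between 0% and 7.22% of the gene's FPKM. The 6 transcripts from a start about 93 kilobases downstream (Mir99ahg-208 begins 93011 bases in) held 52.6% to 71.2%, with a mean of 63.5 ± 5.73% in wild type and 59.8 ± 7.38% in knockout (SD, n = 6 and n = 4), or 56.4 ± 3.40% without knockout replicate 5 (SD, n = 3). RefSeq places the gene's start at that of Mir99ahg-208. The third start, 263899 bases in at Mir99ahg-201, gave 11.9% to 24.7%, and later starts gave 7.92% to 23.0%. Most of the RNA in these ventricles was therefore assigned to transcripts from the second start, in both genotypes.

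Transcripts assigned to the first start were low in 3 of the 4 knockout samples. Their summed level was 0.134 to 0.316 FPKM in the 6 wild-type samples, with a median of 0.199. In knockout it was 0.0311, 0.255, 0 and 2.7e-05 FPKM in replicates 2, 3, 4 and 5. Replicate 3 lay among the wild-type samples and the other 3 lay under all of them. In wild-type replicate 4 the sum was mostly Mir99ahg-204, at 0.119 FPKM from an estimated 2.37 fragments. Mir99ahg-214 was at 0.0207 FPKM there, less than the 0.0311 of knockout replicate 2. For Mir99ahg-214 alone, knockout replicate 2 was therefore not under all wild-type samples. In the other samples nearly all of this signal was Mir99ahg-214, a retained intron form of 3422 bases. Most of its length is its last exon, 124346 to 127362 bases from the gene's start. That exon begins at the same base as exon 2 of Mir99ahg-208, a transcript from the second start. Reads of unspliced RNA from the second start would fall on it too, so these levels do not measure use of the first start alone. The difference of Mir99ahg-214 itself did not pass the threshold (log2 fold change -0.15, SE 0.0948, limma adjusted p = 0.747; without knockout replicate 5, -0.12, adjusted p = 0.874).

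The most abundant transcript was Mir99ahg-208 (3151 bases, 5 exons), which is annotated as a retained intron form and ends 40508 bases before the first hairpin. Its level was 0.527 to 3.73 FPKM in wild type, with a median of 1.58. In knockout replicates 2, 3, 4 and 5 it was 1.13, 1.09, 0.946 and 1.02 FPKM. The knockout samples sat close together within the wild-type range (log2 fold change -0.34, SE 0.275, limma adjusted p = 0.776; without knockout replicate 5, -0.33, adjusted p = 0.876). Its share of Mir99ahg was 27.1 ± 8.08% in wild type and 24.2 ± 5.24% in knockout (SD, n = 6 and n = 4). The difference of -2.97 percentage points gave an exact permutation p of 0.548 (adjusted p = 0.810), and without knockout replicate 5 it was -0.91 points (exact permutation p = 0.869).

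A host transcript can release the cluster only if transcription runs through it. Mir99ahg-209, Mir99ahg-211, Mir99ahg-213 and Mir99ahg-217 span all 3 hairpins, 11 transcripts end before them and 2 start after them. Some of the 11 end just short of the cluster: Mir99ahg-201 ends 405 bases before Mir99a begins, Mir99ahg-202 492 bases and Mir99ahg-207 513 bases before. Transcripts that end before the hairpins held 82.1 ± 6.52% of the gene's FPKM in wild type and 73.3 ± 18.6% in knockout (SD, n = 6 and n = 4). The knockout share was 81.2 ± 11.8% without knockout replicate 5 (SD, n = 3). These are shares of processed RNA as annotated and estimated, and say nothing of how far transcription itself ran on.

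The spanning transcripts held 11.7% to 27.5% of the gene's FPKM in wild type, with a median of 15.0%. In knockout replicates 2, 3, 4 and 5 they held 32.2%, 14.1%, 10.1% and 49.4%. Replicates 2 and 5 were above all wild-type samples and replicate 4 was under all of them. Few reads stood behind these shares. In knockout replicate 4 the spanning transcript with the most reads, Mir99ahg-209, had an estimated 4.82 fragments. In knockout replicates 2 and 5 it was Mir99ahg-211, with 21.2 and 34.5. In FPKM, knockout replicate 5 had 2.81 of spanning transcripts and the other 9 samples had 0.365 to 1.82.

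The level of Mir99ahg in knockout replicate 5 lay within the wild-type range, but its reads were assigned to other transcripts. Mir99ahg-201 and Mir99ahg-216 were listed at 0 in it and were above 0 in the other 9 samples, at 0.510 to 2.07 and 0.132 to 1.32 FPKM. Conversely Mir99ahg-213 reached 1.07 FPKM in it and at most 0.191 elsewhere, and Mir99ahg-211 reached 1.23 FPKM against at most 0.691. Mir99ahg-201 and Mir99ahg-213 share the third start and differ in where they end. They have 2858 and 585 bases, and the same number of reads gives a higher FPKM on a shorter transcript. The summed level of the gene therefore depends on this assignment. An estimated 202 fragments stood behind Mir99ahg in knockout replicate 5, and 212, 272 and 185 in knockout replicates 2, 3 and 4. Its FPKM was nonetheless the highest of the knockout samples. StringTie divides reads among overlapping transcripts by estimation, so a level of 0 for one transcript is an assignment and does not show that its exons had no reads.

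**Figure D3:**
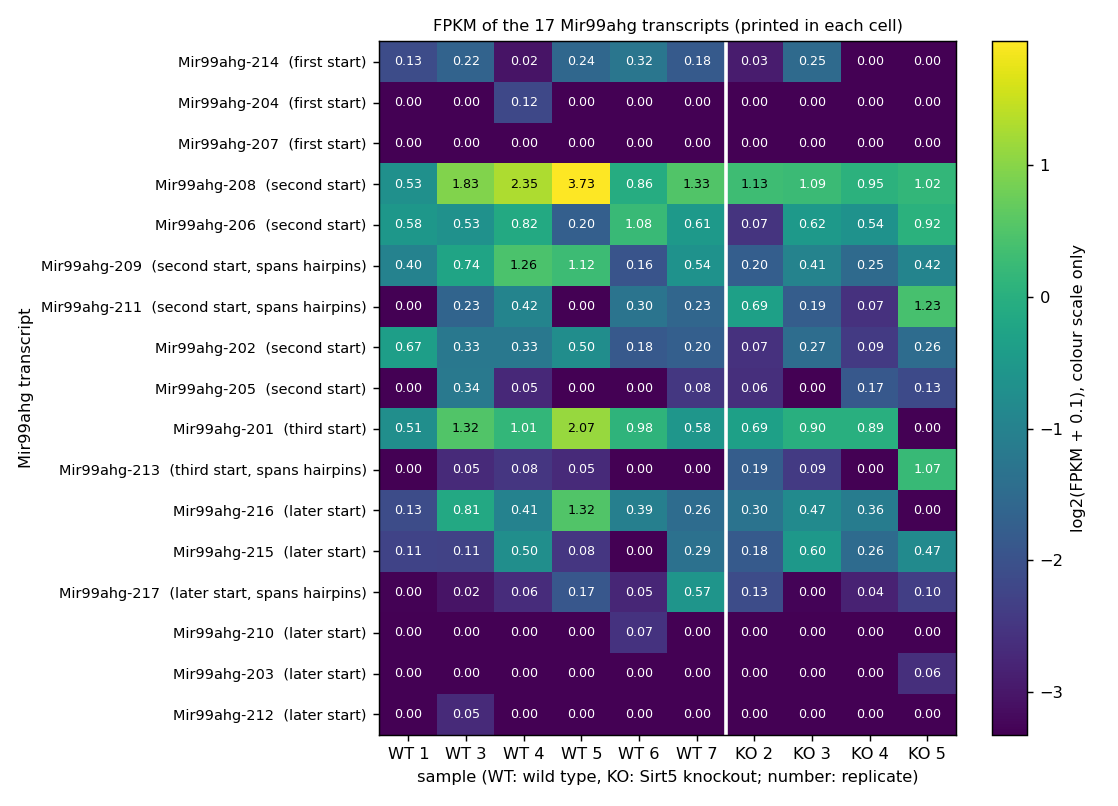
FPKM of the 17 Mir99ahg transcripts (rows, grouped by start, with those that span the hairpins marked) in the 10 samples (columns), printed in each cell and coloured by log2(FPKM + 0.1). The row of Mir99ahg-208 is brightest in wild-type replicate 5 (3.73 FPKM), and in knockout replicate 5 Mir99ahg-201 and Mir99ahg-216 are at 0 while Mir99ahg-213 (1.07 FPKM) and Mir99ahg-211 (1.23 FPKM) are bright.

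Of the 25 transcripts, 15 had a mean of at least 0.1 FPKM and were tested in a fit across 4182 transcripts, in which 0 (0.0%) passed the limma threshold. With knockout replicate 5 left out, 1 of 4141 (0.0241%) passed, and it was no transcript of these hosts. At an unadjusted p below 0.05, 136 transcripts were higher in knockout (3.25%) and 187 lower (4.47%). None of the 15 was among them, and the lowest unadjusted limma p was 0.098, for Mir99ahg-213. The genotypes overlapped in all 15, while they did not overlap in 1.65% of the 4182. That transcript had 0 to 0.0788 FPKM in wild type. Knockout replicates 2, 3, 4 and 5 had 0.191, 0.0860, 0 and 1.07 FPKM, so the genotypes overlapped (log2 fold change 0.31, SE 0.172, limma adjusted p = 0.727). Its exact permutation p was 0.0476 before any adjustment. Without knockout replicate 5 its mean was under 0.1 FPKM and it was not tested.

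Introns of Mir99ahg contain 12 short genes on the same strand that GENCODE lists as awaiting experimental evidence (TEC), and reads of unspliced Mir99ahg RNA would fall on them too. Their summed level was 0 to 2.00 FPKM in wild type (median 1.05) and 0.0441, 0.969, 0.454 and 0.722 FPKM in knockout replicates 2, 3, 4 and 5. They were at 0 in wild-type replicates 6 and 7, and 4 of the 12 were at 0 in all 10 samples. The summed levels overlapped between genotypes.

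Dnm3os (ENSMUSG00000078190.7, chr1:162217623-162225550 on GRCm38, plus strand, 7928 bases) lies within an intron of Dnm3 on the opposite strand and shares no exonic base with it. Dnm3 was not in the table. Wild-type samples ranged from 0.0839 FPKM in replicate 3 to 0.801 in replicate 7, with a median of 0.505. Knockout samples had 0.206, 0.671, 0.827 and 4.65 FPKM in replicates 2, 3, 4 and 5. Replicates 2 and 3 fell inside the wild-type range, replicate 4 just above it, and replicate 5 at 9.07 times the median of the other 9 samples.

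The log2 fold change of Dnm3os was 0.52 (SE 0.358, limma adjusted p = 0.724; exact permutation p = 0.248). Without knockout replicate 5 it was 0.05 (SE 0.188, limma adjusted p = 0.977; exact permutation p = 0.833), and the means were 0.513 FPKM in wild type and 0.57 ± 0.323 in the remaining knockout samples (SD, n = 3). The smallest p that the exact test can give is 0.00476 with all 10 samples and 0.0119 without that sample.

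**Figure D4:**
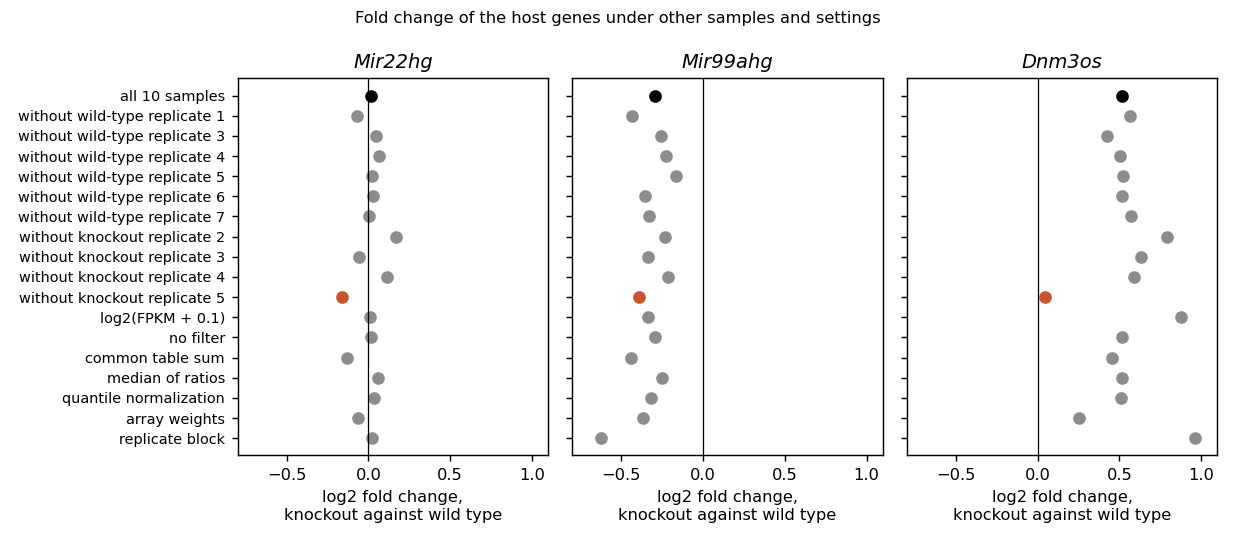
Log2 fold change of each host gene, knockout against wild type, with all 10 samples (black), without knockout replicate 5 (orange) and with other samples left out or other settings (grey). The values of Mir22hg lie on both sides of 0, those of Mir99ahg stay under 0 and those of Dnm3os stay above 0, dropping from 0.52 to 0.05 without knockout replicate 5.

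Nearly all Dnm3os signal was assigned to Dnm3os-201 (7928 bases) and Dnm3os-202 (7926 bases), unspliced forms that differ by the last bases only and both contain Mir199a-2, which begins 191 bases after their start, and Mir214, which begins 5745 bases after it. Together they held 95.4% to 100% of the gene's FPKM. Their FPKM stood in a ratio of 1.00024 to 1.00025 in the 10 samples, and their lengths in a ratio of 1.00025, so reads were split evenly between them and they are best read as 1 transcript. The share of Dnm3os-202 differed by 0.26 percentage points, knockout minus wild type (exact permutation p = 0.810). Without knockout replicate 5 the difference was 0.386 points (exact permutation p = 0.524). The spliced Dnm3os-203 was above 0 in 2 samples, at 0.0371 FPKM in wild-type replicate 7 and 0.0471 in knockout replicate 5. Dnm3os-204, Dnm3os-205 and Dnm3os-206 were listed at 0 throughout.

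The Dnm3os promoter is shown because Dnm3os had the sample farthest above the others in relative terms, at 9.07 times the median of the other 9. The window from RefSeq (GRCm38.p6, chr1:162217373-162217672, plus strand) runs from 250 bases before the annotated start to 50 bases after it, written 5′ to 3′.
Dnm3os promoter: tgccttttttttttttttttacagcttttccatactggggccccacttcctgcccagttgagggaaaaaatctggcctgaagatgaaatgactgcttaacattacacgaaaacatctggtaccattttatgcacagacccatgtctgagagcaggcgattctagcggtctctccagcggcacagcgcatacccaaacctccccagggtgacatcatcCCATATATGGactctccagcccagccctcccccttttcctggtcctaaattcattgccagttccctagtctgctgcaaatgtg
The capitals mark a CArG box, the motif that serum response factor binds, whose first base lies 33 bases before the start. Searched on both strands, a CArG box was found in 535 of 32851 mouse promoter windows of this length (1.63%), and in neither the Mir22hg nor the Mir99ahg window. The window also held 3 E-boxes (CANNTG), a motif found in 72.3% of all windows. The Mir22hg window held 1 E-box and 2 CCAAT boxes (CCAAT or ATTGG, in 37.4% of windows), and the Mir99ahg window none of either. These are matches of letters, and binding was not measured.

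Knockout replicate 5 was extreme in both directions, as the highest sample in 588 of the 3293 genes and loci tested and the lowest in 538. Each of the other samples was highest in 211 to 455 and lowest in 146 to 340. Malat1, Neat1, H19 and Meg3 were chosen to be set beside knockout replicate 5, which was the highest sample for each of them. Malat1, an abundant nuclear RNA, was at 951 FPKM in it and at 58.4 to 81.8 FPKM in the other 9 samples. Neat1, around which paraspeckles form, reached 9.02 FPKM against 0.00429 to 3.08, H19 at 4.21 against 0.760 to 1.92, and Meg3 at 7.92 against 0.517 to 3.76. The heart muscle RNA Mhrt was at 0.835 FPKM, the lowest value of the 10 samples, and the smooth muscle RNA Carmn at 9.56, under the wild-type range of 11.95 to 17.97 FPKM, as were knockout replicates 2 and 4. The part of cell composition or nuclear RNA content in the Dnm3os value of that sample was not tested.

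Genes whose levels followed the hosts most closely were looked for among 572 annotated genes with a mean of at least 0.5 FPKM. Correlations are across the same 10 libraries and share their depth and scaling, and since the highest of many were taken they are a description with no p. For Mir22hg they were Gm17207 (Spearman's rho 0.88, Pearson's r 0.73), Gm26514 (0.85 and 0.86) and Ptpmt1 (0.85 and 0.83), with rho between 0.80 and 0.87 over the 9 samples without knockout replicate 5. For Mir99ahg they were Gm12996 (rho 0.93, r 0.89), Gm43920 (0.90 and 0.90) and Gm10125 (0.77 and 0.77), with rho of 0.95, 0.88 and 0.70 over the 9 samples. For Dnm3os they were Gm12840 (rho 0.88, r 0.94), 1110046J04Rik (0.82 and 0.91) and Pvt1 (0.81 and 0.97), with rho of 0.83, 0.75 and 0.73 over the 9 samples. Each of the latter was itself highest in knockout replicate 5: Gm12840 at 15.3 FPKM against 1.03 to 4.98 elsewhere, 1110046J04Rik at 4.11 against 0.835 to 1.95, and Pvt1 at 3.27 against 1.03 to 1.67.

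The closest relative of Mir99ahg in the table was 3110039I08Rik, which hosts the paralogous cluster of Mir100, Mir125b-1 and Mirlet7a-2 on chromosome 9. The products are shown because the clusters overlap in what they make.
mmu-miR-100-5p (3110039I08Rik, chr9:41531437-41531458, plus strand): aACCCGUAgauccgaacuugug
The seed in capitals is that of miR-99a-5p, from which miR-100-5p differs by 1 base of 22 (U16A, counted from the 5′ end, miR-99a-5p first), and miR-125b-5p is identical from both hosts. The level of 3110039I08Rik was 3.05 to 8.52 FPKM in wild type, with a median of 5.08. Knockout replicates 2, 3, 4 and 5 had 5.20, 6.45, 6.91 and 7.28 FPKM, all within the wild-type range. Its log2 fold change was 0.21 (SE 0.224, limma adjusted p = 0.813) and 0.15 without knockout replicate 5 (limma adjusted p = 0.914). That of Mir99ahg was -0.29, and neither passed the threshold. The difference between these fold changes was not tested.

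No other microRNA host passed the threshold either. By annotation or by name, 127 further host genes were listed and 117 were in the table, of which 27 were at 0 in all samples and 41 were tested. Of those in the table, Carmn, Lncpint, Pvt1, Mirt1 and Mirt2 were listed by name alone and hold no annotated hairpin within their bounds. Of the 38 tested hosts listed by annotation, the fold change was above 0 in 23 and under 0 in 15. The 41 listed by annotation or name gave 0 calls. The fold change was above 0 in 24 of the 41 and under 0 in 17, with a median of 0.04, against a median of -0.01 over all 3293 genes and loci. At an unadjusted limma p below 0.05, 2 of the 41 hosts were higher in knockout and 3 lower, where 3.19% and 5.19% of all genes and loci were. Without knockout replicate 5, 42 were tested, 0 passed, and the median was again 0.04. At an unadjusted p below 0.05, 2 of the 42 were then higher and 4 lower, where 2.87% and 3.49% of all were. Counts this small do not set the hosts apart from the other genes.

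The 3 lower hosts were Rmst, Carmn and Gm20632. Rmst, which carries Mir135a-2, was at 1.51 ± 0.342 FPKM in wild type and 0.552 ± 0.331 in knockout (SD, n = 6 and n = 4). The log2 fold change of Rmst was -0.71 (SE 0.160, limma adjusted p = 0.252), and -0.57 without knockout replicate 5 (limma adjusted p = 0.385). It was the only host among the 19 with a mean of at least 0.5 FPKM whose genotypes did not overlap (2.16% of all genes and loci tested), with wild-type samples between 1.21 and 2.15 FPKM and knockout replicates 2, 3, 4 and 5 at 0.825, 0.815, 0.427 and 0.140 FPKM. Carmn, from whose locus miR-143 and miR-145 of smooth muscle come, was at 13.8 ± 2.41 and 10.2 ± 1.52 FPKM in wild type and knockout, mean ± SD of 6 and 4 samples. The log2 fold change of Carmn was -0.39 (limma adjusted p = 0.590) with all samples and -0.36 without knockout replicate 5. The log2 fold change of Gm20632 was -0.38 (limma adjusted p = 0.590), and -0.40 without that sample. The higher hosts were Mir17hg and Gm6277, the latter with a log2 fold change of 0.24 (limma adjusted p = 0.590), and 0.29 without that sample. Mir17hg, Gm6277 and Gm20632 are named here after their values were seen. Mir17hg, the host of the miR-17 to miR-92 cluster, was listed at 0 in 4 of 6 wild-type samples and was at 0.0240 and 0.0682 FPKM in replicates 6 and 7. In knockout replicates 2, 3, 4 and 5 it was at 0.655, 0.0141, 0.172 and 0.609 FPKM, so the genotypes overlapped (log2 fold change 0.39, SE 0.131, limma adjusted p = 0.528; without knockout replicate 5, 0.30, adjusted p = 0.737).

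Knockout replicate 5 was not high in every host. A330023F24Rik, which carries Mir29b-2 and Mir29c, had 0.0882 FPKM in it, the lowest of the 10 samples, and 0.577 to 1.75 FPKM in wild type. F630028O10Rik, which carries the myeloid Mir223, had 2.44 FPKM in it, the highest, and 0, 0.233 and 0.606 in the other knockout samples, all under the wild-type range of 0.642 to 1.33 FPKM. Its genotypes therefore overlapped only through that sample, and 3.85% of all genes and loci did not overlap without it. The macrophage and lymphocyte markers Mir142hg and Mir155hg were at 0.215 and 0.00513 FPKM in knockout replicate 5. In wild type they ranged from 0.0537 to 0.704 and from 0.0156 to 0.512 FPKM. Dleu2, the host of Mir15a and Mir16-1, was at 1.35 ± 0.451 FPKM in wild type and 1.48 ± 0.230 in knockout, and Ftx, which carries Mir374b and Mir421, at 1.39 ± 0.182 and 1.35 ± 0.653 (SD, n = 6 and n = 4). Their limma adjusted p-values were 0.896 and 0.942, and 0.884 and 0.824 without knockout replicate 5.

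**Figure D5:**
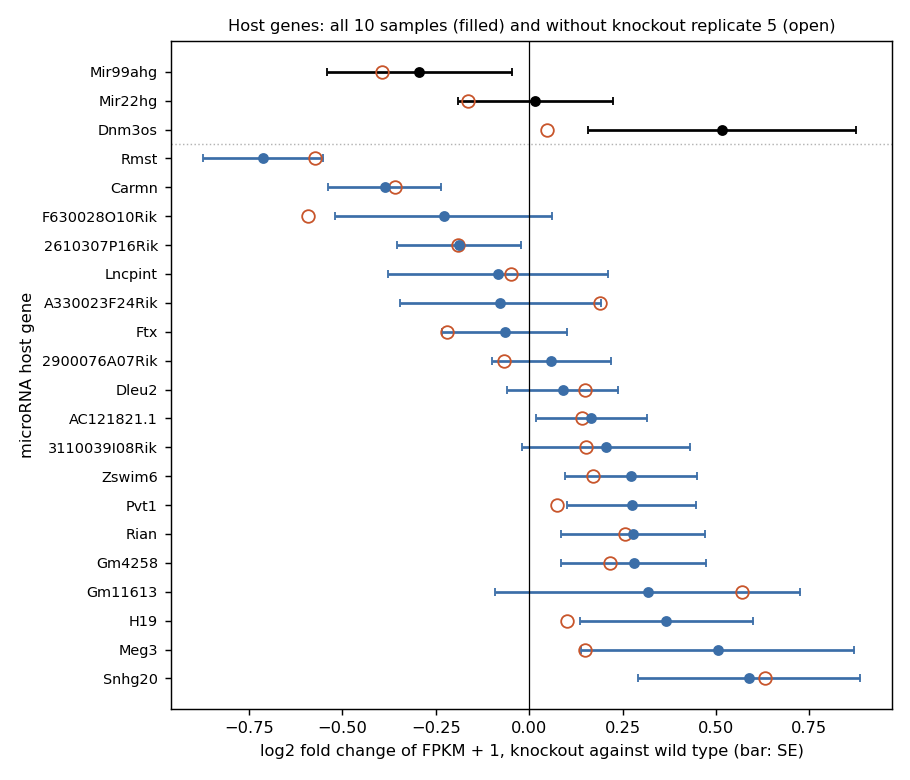
Log2 fold change of log2(FPKM + 1), knockout against wild type, with its standard error (filled points and bars) for Mir22hg, Mir99ahg and Dnm3os (black) and the 19 other microRNA hosts with a mean of at least 0.5 FPKM (blue), and without knockout replicate 5 (open orange circles). Carmn, Lncpint and Pvt1 were listed as hosts by name alone and hold no annotated hairpin within their bounds. Of the 19, 12 lie above 0 and 7 under it, Rmst is lowest at -0.71, and Dnm3os moves from 0.52 to 0.05 without knockout replicate 5.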

How the data were processed

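The authors depleted ribosomal RNA, digested the second cDNA strand, mapped filtered reads to GRCm38 with HISAT2 and computed the deposited FPKM values with StringTie 1.2.0, all per the design text of the series. The text names more than one ribosomal RNA removal kit and sequencing instrument and does not assign them to samples. The HISAT2 version, StringTie's use of read strand and the choice of transcripts for the table are not given in the sources used here.

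Of 20741 transcripts, 18969 matched GENCODE M21, and FPKM were summed per gene (14771 genes and loci after 16 were set aside for a shared symbol). Genotypes were compared on log2(FPKM + 1), which understates changes of low genes, with limma 3.58.1 in R 4.3.3, moderation along an intensity trend, no covariate beside genotype, and Benjamini-Hochberg adjustment over all features with a mean of at least 0.1 FPKM. Single values and shares were compared by exact two-sided permutation over 210 splits (84 without knockout replicate 5). Depth was estimated from the FPKM steps of single-exon transcripts. Tables were handled with pandas 2.3.3 in Python 3.11.15. Alternatives were another pseudocount, other filters, 3 other scalings, other variance settings, each sample left out, and the replicate number as a block.

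Named genes were the hosts and their transcripts, the 3 most correlated annotated genes of each, other hosts with a mean of at least 0.5 FPKM, and Malat1, Neat1, H19 and Meg3. Outside that rule, the single called locus and the markers Mhrt, Mir142hg and Mir155hg are named. Mir17hg, Gm6277 and Gm20632 are also named, after their values were seen. The members, lists and tests were chosen with earlier results of these data known.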

Additional observations from a re-analysis of the deposited data

Results flagged for a closer look

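In 86 groups of 4 to 6 values, Dixon's test at the 95% level found a sample standing apart in 11. For independent, normally distributed groups chance gives about 1 in 20 (4.3 of 86). These groups are neither, since gene, transcript and share values overlap and many values are 0. Malat1 and H19 were also chosen to be set beside knockout replicate 5, so the 11 cannot be compared with that figure. Of the 11, 6 concerned knockout replicate 5. For Dnm3os that sample was at 4.65 FPKM and the other knockout samples at 0.206 to 0.827. Its transcripts Dnm3os-201 and Dnm3os-202 were both at 2.30 FPKM against 0.103 to 0.413, and since reads were split evenly between them these are the same observation. Malat1 was at 951 FPKM against 59.8 to 78.9, and H19 at 4.21 against 1.32 to 1.67. The share of Dnm3os-202 was 49.5% in knockout replicate 5 and 47.7% in wild-type replicate 7, against 50.0% in all other samples, and these are the 2 samples in which Dnm3os-203 was above 0.

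The others fell in different samples. Mir99ahg-214 was at 0.255 FPKM in knockout replicate 3 and at 0 to 0.0311 in the other knockout samples. Mir99ahg-217 was at 0.574 FPKM in wild-type replicate 7 and at 0.00245 to 0.170 in the other wild-type samples. Meg3 was at 0.517 FPKM in wild-type replicate 5 and at 2.13 to 2.99 in the others. Carmn was at 12.5 FPKM in knockout replicate 3 and at 9.42 to 9.56 in the others.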

How the results depend on the processing

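In 20 of 20 alternatives 0 of the 3 hosts and 0 of the other microRNA hosts passed the threshold, and in 10 of 10 no isoform share did. The exact permutation test per gene and the replicate block of the shares are left out of these counts, since their smallest p could not pass. Over the 16 alternatives that can change a fold change, that of Mir99ahg was under 0 in 16 (-0.63 to -0.16) and that of Dnm3os above 0 in 16 (0.05 to 0.96). Dnm3os has a mean of 0.944 FPKM and was not tested at a minimum of 1. That of Mir22hg reversed to -0.13 with a common table sum, to -0.061 with array weights, and with samples left out ranged from -0.16 to 0.17. Mir22hg-202 reversed to -0.0055 with log2(FPKM + 0.1) and to -0.021 with the replicate block, and ranged from -0.16 to 0.14 with samples left out. Mir22hg-201 reversed to -0.0037 without knockout replicate 5 (0.19 at most with samples left out). Mir99ahg-206 reversed to 0.17 with the replicate block and to 0.060 without knockout replicate 2 (from -0.22 with samples left out). The share of Dnm3os-202 reversed to -0.126 percentage points without wild-type replicate 7 (up to 0.386 with samples left out) and to -0.168 with the replicate block. The cause of these reversals was not tested.

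The count of genes and loci past the threshold, 1, was 2 with log2(FPKM + 0.1), 2 at a mean of at least 1 FPKM (1122 tested), 2 without knockout replicate 5, and 0 with no filter, median-of-ratios scaling, the exact permutation test or the replicate block, and with samples left out it ranged from 0 to 2. For transcripts, 0, it was 2 at a mean of at least 1 FPKM, 1 without wild-type replicate 3 and 1 without knockout replicate 5, with a range of 0 to 1 over samples left out.

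Replicate numbers 3, 4 and 5 occur in both genotypes, and the labels do not say whether they pair samples. Deviations of same-numbered samples correlated at -0.0971 to 0.0828 over 3 pairs, 1 of which was best with its own number. Those of differently numbered samples correlated at -0.138 to 0.167. With 3 pairs, these values cannot show whether same-numbered samples are related. With the replicate block Mir99ahg was at -0.63 (limma unadjusted p = 0.0227, adjusted p = 0.725) and Dnm3os at 0.96. These fold changes rest on replicates 3, 4 and 5 of each genotype only, knockout replicate 5 among them. Depth limits Dnm3os most, with as few as 16.9 estimated fragments in a sample.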
